A study of Mus musculus with 6 samples.

Results

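The transcripts examined here encode the machinery that loads peptides onto MHC class I, the molecule through which nucleated cells show fragments of their own proteins to CD8+ T cells. The set of 10 genes was named by function: the light chain B2m, the classical heavy chains H2-K1 and H2-D1, the non-classical heavy chain H2-T23, the peptide transporter subunits Tap1 and Tap2, the tapasin gene Tapbp, and the immunoproteasome subunits Psmb8, Psmb9 and Psmb10. All 10 were among the 49315 genes of the count table, and all 10 passed the filter on low counts that left 13572 genes to test. No measured value entered the choice, although it was made with earlier results of these data known.

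The libraries were made by bulk RNA-seq from sorted Tregs (regulatory T cells, the Foxp3-expressing CD4+ cells that restrain immune responses) of Foxp3-GFP mice, whose Foxp3-expressing cells fluoresce green. One group, skin Tregs, came from neonatal skin, and the other, SDLN Tregs, from skin-draining lymph nodes, with 3 libraries (lettered A to C) in each. All animals were 9-day-old mice of the C57BL/6J background and both sexes, no treatment was named for either group, the batch number was 1 throughout, and the methods describe 3 biological replicates pooled into each sample. The comparison asked how the same sorted population differs between the tissue and the node that drains it.

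The skin libraries were much shallower, with 3748669, 11741784 and 9033442 counts (A, B, C) against 116158706, 72799278 and 47243498 in SDLN. A gene at 3 counts or fewer was called at the floor, and levels are given as CPM (counts-per-million, scaled by each library's summed counts). The floor lay at 0.800, 0.255 and 0.332 CPM in skin A, B and C and between 0.0258 and 0.0635 CPM in SDLN. Of 2245 genes whose SDLN libraries averaged 100 to 1000 CPM, 53.9%, 18.5% and 24.01% were at the floor in skin A, B and C and 0% in each SDLN library, also after the SDLN libraries were drawn down at random to 3748669 counts. Foxp3 and Cd4, which define the sorted cells, had 0, 330 and 1 and 0, 1861 and 2 counts in the skin libraries. Taken alone, these transcripts bore out the label in skin B and not in skin A or C. Foxp3 had at least 1788 and Cd4 at least 14288 counts in every SDLN library. The 10 Treg markers, with Foxp3, summed to 6231, 9976 and 8314 CPM in skin A, B and C and 6348 to 7298 CPM in SDLN. The 11 T cell markers, with Cd4, summed to 4194, 5844 and 6082 CPM in skin and 9825 to 12012 CPM in SDLN. A list of 17 myeloid markers summed to 5417 to 10971 CPM in skin and 75.2 to 127 CPM in SDLN. The part that these differences had in the results below was not tested. In bulk samples, fewer cells of a type and less RNA per cell cannot be told apart.

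Class I molecules are assembled in the endoplasmic reticulum from a polymorphic heavy chain and B2m. Proteasomes cut cytosolic proteins into peptides, and under interferon the catalytic subunits Psmb8, Psmb9 and Psmb10 can replace their constitutive counterparts Psmb5, Psmb6 and Psmb7. The heterodimer of Tap1 and Tap2 pumps peptides across the membrane, and tapasin bridges it to the waiting heavy chain. Resting T cells carry abundant class I on their surface, and interferon-gamma raises transcription of the whole route, with Irf1 and Nlrc5 among the regulators.

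Most of the members lie in the MHC on chromosome 17. In the GRCm38 gene models, Psmb9 (chr17:34181987-34187764), Tap1 (chr17:34187553-34197225), Psmb8 (chr17:34197721-34201454) and Tap2 (chr17:34203527-34216321) stand side by side, with Tapbp (chr17:33915899-33929292), H2-K1 (chr17:33996017-34000347), H2-D1 (chr17:35262730-35267499) and H2-T23 (chr17:36029773-36032855) on the same chromosome. B2m (chr2:122147686-122153083) and Psmb10 (chr8:105935735-105938444) lie elsewhere. Tap1 and Psmb9 are read in opposite directions from RefSeq starts 226 bases apart, and their promoter windows share 275 bases. The 4 upstream stretches below are shown because they stand before the light chain and the 2 classical heavy chains, which were abundant in every library, and between the divergent pair Tap1 and Psmb9, which were not. Each is the 250 bases before a RefSeq start on GRCm38.p6, written 5′ to 3′ on the strand of the gene. For H2-K1, which has windows at 2 starts, the more downstream start was used. Capitals mark matches on either strand to the motifs named after the sequences.
B2m, chr2:122147437-122147686, plus strand: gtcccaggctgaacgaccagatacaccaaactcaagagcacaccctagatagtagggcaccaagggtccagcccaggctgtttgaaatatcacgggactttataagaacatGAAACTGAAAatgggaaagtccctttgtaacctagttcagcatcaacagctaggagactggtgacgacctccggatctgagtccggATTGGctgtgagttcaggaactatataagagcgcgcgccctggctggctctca
H2-K1, chr17:34000334-34000583, minus strand: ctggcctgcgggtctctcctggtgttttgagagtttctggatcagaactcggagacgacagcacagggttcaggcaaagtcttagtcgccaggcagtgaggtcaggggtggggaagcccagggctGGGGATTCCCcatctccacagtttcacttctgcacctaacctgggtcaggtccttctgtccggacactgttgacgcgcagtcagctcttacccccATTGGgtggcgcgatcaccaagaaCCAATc
H2-D1, chr17:35262844-35263093, plus strand: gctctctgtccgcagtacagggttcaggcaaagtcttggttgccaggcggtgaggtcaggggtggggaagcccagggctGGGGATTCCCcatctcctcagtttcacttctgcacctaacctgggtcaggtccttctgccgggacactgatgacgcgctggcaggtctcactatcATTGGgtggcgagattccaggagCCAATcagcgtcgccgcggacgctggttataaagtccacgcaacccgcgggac
Tap1, chr17:34187306-34187555, plus strand: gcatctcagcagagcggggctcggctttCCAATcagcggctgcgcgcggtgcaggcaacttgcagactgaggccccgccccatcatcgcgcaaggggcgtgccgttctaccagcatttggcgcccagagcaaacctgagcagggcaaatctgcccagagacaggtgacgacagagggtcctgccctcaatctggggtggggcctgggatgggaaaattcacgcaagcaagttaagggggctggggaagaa

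The kB motif of class I promoters, the capitals of 10 bases in the H2-K1 and H2-D1 lines, occurred in the windows of H2-K1 and H2-D1 and in 35 of 32851 promoter windows of 300 bases (0.107%). The first base lay 125 bases before the H2-K1 start shown and 171 before that of H2-D1. The core of the interferon-stimulated response element (ISRE), the capitals of 10 bases in the B2m line, occurred in B2m and H2-T23 (3.44% of all windows), beginning 139 and 124 bases before their starts. CCAAT occurred in B2m, H2-K1, H2-D1, H2-T23, Tap1, Tapbp and Psmb9, and in 37.4% of all windows. Both strands were searched, the CCAAT matches of Tap1 and Psmb9 are the same 5 bases within their shared stretch, windows were held for 9 of the 10 genes (Tap2 was the exception), and a match describes letters only.

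B2m and the 2 classical heavy chains were abundant in all 6 libraries, and none of them passed the test between tissues. The light chain B2m (ENSMUSG00000060802), which every class I heavy chain needs to fold and reach the surface, had 2677, 3020 and 1856 CPM in the skin libraries (A, B, C). Its SDLN levels were 2976, 3015 and 1502 CPM in the same letter order. The groups overlapped, and the C library was the lowest in each. The skin mean was 2518 ± 598 and the SDLN mean 2498 ± 862 CPM (SD, n = 3). The log2 fold change of skin over SDLN was -0.01 (SE 0.33, 95% interval -0.83 to 0.81, edgeR adjusted p = 0.994).

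H2-K1 (ENSMUSG00000061232), which presents peptides to CD8+ T cells, had 1237, 3440 and 4010 CPM in skin against 2034, 1790 and 1918 CPM in SDLN. Skin B and C were above, and skin A below, every SDLN library. The skin mean was 2896 ± 1464 and the SDLN mean 1914 ± 122 CPM (SD, n = 3), a log2 fold change of 0.72 (SE 0.61, 95% interval -0.80 to 2.25, edgeR adjusted p = 0.5004). It was the one positive fold change among the 10 genes. Without skin A it was 0.97 and passed the threshold (edgeR adjusted p = 0.00798), and without skin C it was 0.10 (edgeR adjusted p = 0.924).

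H2-D1 (ENSMUSG00000073411), the other classical heavy chain, had 5869, 4929 and 1993 CPM in skin and 4690, 4710 and 3737 CPM in SDLN. Skin A and B exceeded every SDLN library, and skin C lay below them all. By abundance it ranked 9, 6 and 43 among all genes in the skin libraries against 4, 4 and 9 in SDLN. The log2 fold change was -0.16 (SE 0.28, 95% interval -0.85 to 0.54, edgeR adjusted p = 0.823).

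The balance of the 2 classical chains varied among the skin libraries. H2-K1 over H2-D1, a ratio of counts within a library that needs no scaling, was 0.211, 0.698 and 2.01 in skin against 0.434, 0.380 and 0.513 in SDLN. The skin values spanned both sides of the narrow SDLN range. On the log2 scale the means were -0.59 ± 1.63 in skin and -1.19 ± 0.22 in SDLN (SD, n = 3), a difference of 0.60 (exact two-sided permutation p = 0.70, adjusted p = 0.70 over 3 ratios). The difference was -0.19 without skin C and 1.43 without skin A. The ratio of both classical chains to B2m was 2.65, 2.77 and 3.23 in skin and 2.26, 2.16 and 3.76 in SDLN, with a log2 difference of 0.13 (exact two-sided permutation p = 0.60, adjusted p = 0.70).

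H2-T23 (ENSMUSG00000067212) encodes Qa-1, the non-classical chain that presents leader peptides of other class I molecules to NKG2 receptors. It had 59.8, 3.49 and 33.3 CPM in skin and 61.6, 117 and 143 CPM in SDLN, so each skin library lay below each SDLN library, skin A by a small margin. Skin B, the deepest skin library, was the lowest with 41 counts. The log2 fold change was -1.89 (SE 1.42, 95% interval -5.38 to 1.60, edgeR adjusted p = 0.420). Relative to the sum of H2-K1 and H2-D1 it stood at a log2 ratio of -6.89, -11.23 and -7.49 in skin and -6.77, -5.80 and -5.30 in SDLN. The skin mean was lower by 2.58 log2 units, -8.54 ± 2.35 against -5.96 ± 0.75 (SD, n = 3). An exact two-sided permutation test gave p = 0.10, which 3 against 3 libraries cannot go below, and 0.30 after adjustment over the 3 ratios. The difference was -1.24 without skin B and -3.40 without skin A.

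**Figure D1:**
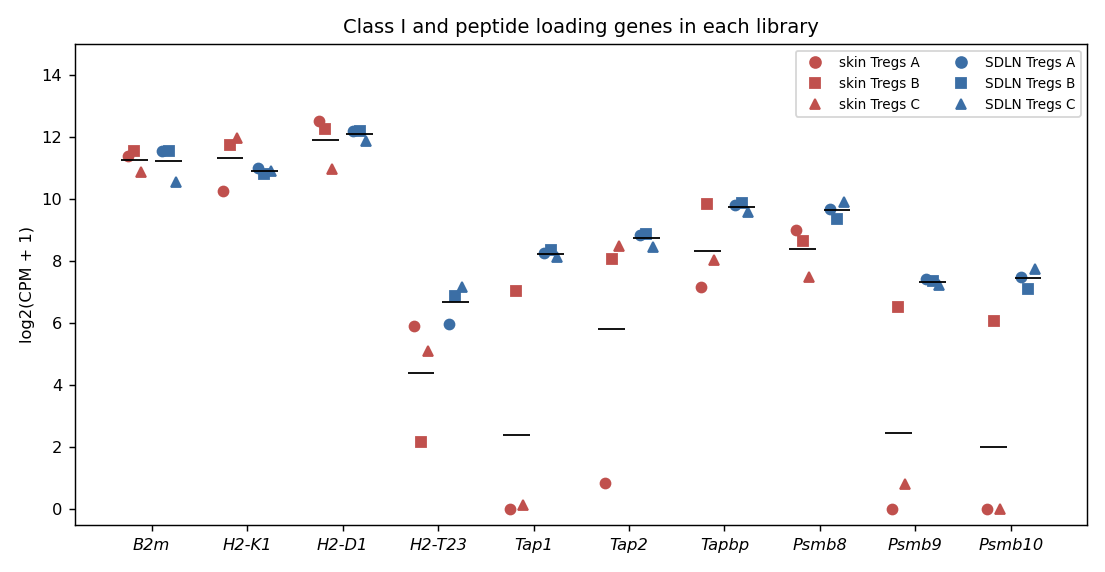
Level of each gene in each library, as log2(CPM + 1) on the vertical axis, with skin Tregs in red, SDLN Tregs in blue, marker shapes for libraries A to C and a black line at the group mean. B2m, H2-K1 and H2-D1 lie at 1237 CPM or above in every library, while Tap1, Psmb9 and Psmb10 are close to 0 in skin A and C and highest among skin libraries in B, still below SDLN.

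The peptide transporter subunits differed widely among the skin libraries. Tap1 (ENSMUSG00000037321), which forms the transporter with Tap2, had 0, 1533 and 1 counts in skin A, B and C, or 0, 131 and 0.111 CPM, against 303, 328 and 277 CPM in SDLN. All skin libraries were lower than all SDLN libraries, with skin A and C at the floor and skin B at 131 CPM, nearest to SDLN. Drawn down to the total of skin A, the SDLN libraries still had 1159, 1267 and 999 Tap1 counts. The skin mean was 43.6 ± 75.3 and the SDLN mean 303 ± 25.5 CPM (SD, n = 3), with a log2 fold change of -2.74 (SE 2.67, 95% interval -9.37 to 3.90, edgeR adjusted p = 0.580). The skin mean rested on skin B. Without it the same test gave -11.94 on the log2 scale, with 0.00547 as adjusted p, from skin libraries of 0 and 1 counts.

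Tap2 (ENSMUSG00000024339), the partner subunit, had 0.800, 270 and 357 CPM in skin and 461, 472 and 354 CPM in SDLN. Skin A held 3 counts and was at the floor, and skin C, where Tap1 had 1 count, was within the SDLN range. The log2 fold change was -0.81 (SE 1.67, 95% interval -4.95 to 3.34, edgeR adjusted p = 0.859), and -1.72 without skin C. The ratio of Tap1 to Tap2 could be formed in skin B alone among the skin libraries, where it was 0.483, against 0.659, 0.696 and 0.785 in SDLN. Tap2 exons overlap genes on the opposite strand over 18.5% of their length.

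Tapbp (ENSMUSG00000024308), which encodes tapasin, the chaperone that tethers empty class I molecules to the transporter, was over the floor in every library. It had 143, 910 and 260 CPM in skin and 901, 935 and 768 CPM in SDLN. Skin B lay within the SDLN range and skin A and C below it. The means were 438 ± 413 and 868 ± 87.9 CPM (SD, n = 3), and the log2 fold change was -0.92 (SE 0.81, 95% interval -2.93 to 1.09, edgeR adjusted p = 0.520). It was -2.03 without skin B (edgeR adjusted p = 0.0688) and -0.60 without skin A. Of its annotated exon length, 24.9% overlaps a gene on the opposite strand and 4.11% a gene on the same strand. The strand setting of the counting was not given in the sources used here.

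The immunoproteasome subunits all had lower CPM in each skin library than in each SDLN library, as did 53.6% of all tested genes, and none passed the threshold. Psmb8 (ENSMUSG00000024338), the inducible chymotrypsin-like subunit, had 510, 405 and 179 CPM in skin and 821, 662 and 949 CPM in SDLN. The gap between the highest skin and the lowest SDLN library was 510 against 662 CPM. The means were 365 ± 169 and 810 ± 144 CPM (SD, n = 3), and the log2 fold change was -1.29 (SE 0.44, 95% interval -2.37 to -0.21). In edgeR's quasi-likelihood test its p was 0.0269, and its adjusted p 0.0576. Across 17 alternative fits its adjusted p ran from 0.00803 to 0.316, and it passed 0.05 in 4 of them, one of which left out skin A (0.0419). Its exons overlap an opposite-strand gene over 14.7% of their length.

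Psmb9 (ENSMUSG00000096727), the inducible caspase-like subunit, had 0, 1075 and 7 counts in skin, or 0, 91.6 and 0.775 CPM, against 171, 162 and 149 CPM in SDLN. Psmb10 (ENSMUSG00000031897), the inducible trypsin-like subunit, had 0, 779 and 0 counts in skin, or 0, 66.3 and 0 CPM, against 179, 137 and 214 CPM in SDLN. Both thus followed the order seen for Tap1, with skin B the highest skin library and A and C at or close to the floor. At the depth of skin A, the SDLN libraries had 571 to 631 counts of Psmb9 and 508 to 788 of Psmb10. The log2 fold changes were -2.32 (SE 2.49, 95% interval -8.50 to 3.86, edgeR adjusted p = 0.631) for Psmb9 and -2.95 (SE 2.91, 95% interval -10.17 to 4.27, edgeR adjusted p = 0.586) for Psmb10. These values, too, rested on skin B. Without it the log2 fold change was -8.34 for Psmb9 (edgeR adjusted p = 0.0346) and -16.13 for Psmb10 (edgeR adjusted p = 0.00670), from skin libraries of 0 to 7 counts. Psmb10 had 0 counts in skin A and C, so the size of its value is set by the fit and is not a measured fold.

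Part of the genes outside the class I route had the same order. Among the 2245 genes that averaged 100 to 1000 CPM in SDLN, 231 (10.3%) were over the floor in skin B alone and 821 (36.6%) in all skin libraries. Tap1 and Psmb10 were the members over the floor in skin B alone. Of the 7 members in that range of SDLN levels, 4 (57.1%) were at the floor in skin A, 0 in skin B and 2 (28.6%) in skin C, beside 53.9%, 18.5% and 24.01% of all 2245 genes. Psmb9 in skin C, with 7 counts, was just over the floor.

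The constitutive subunits that the inducible ones replace were also uneven among the skin libraries. Psmb5 had 774, 2576 and 0 counts in skin A, B and C, Psmb6 had 0, 2092 and 4599, and Psmb7 had 0, 1275 and 0. The ratio of Psmb8 to Psmb5 was 2.47 and 1.85 in skin A and B, below the 6.51, 6.71 and 11.2 of SDLN, and it could not be formed in skin C. Psmb9 over Psmb6 was 0.514 in skin B, within the SDLN values of 0.434, 0.672 and 0.195, and 0.00152 in skin C, where it rested on 7 counts of Psmb9. Psmb10 over Psmb7 was 0.611 in skin B and 1.76, 1.37 and 3.62 in SDLN. No test was made on these 3 ratios, since a skin library was missing from each.

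**Figure D2:**
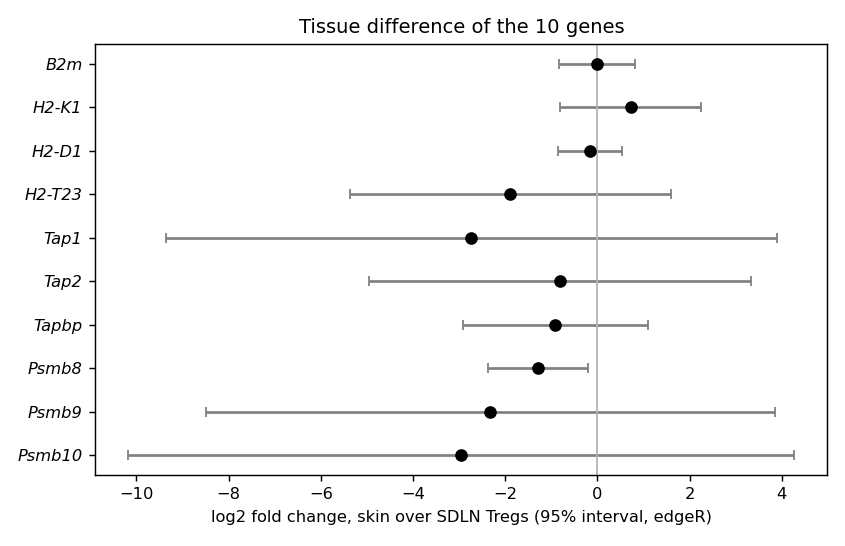
Log2 fold change of skin over SDLN Tregs for each gene (horizontal axis, points) with its 95% interval from edgeR (bars). The interval of Psmb8, -2.37 to -0.21, lies below 0 before adjustment over genes, those of B2m and H2-D1 run between -0.85 and 0.81, and that of Psmb10, the widest, runs from -10.17 to 4.27.

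Counted together, 0 of the 10 members passed the adjusted threshold of 0.05 in either direction, while 1.04% of all tested genes were called higher in skin and 45.3% higher in SDLN. One member, Psmb8, had an unadjusted p under 0.05. DESeq2 called 1 member, Psmb8, lower in skin, as it did 51.9% of the genes it tested. With quality weights, limma voom called 3 members lower in skin, namely Tap1, Psmb9 and Psmb10, beside 53% of all genes. Without skin A, H2-K1 was called higher in skin and Psmb8 higher in SDLN, as were 2.04% and 42.5% of the genes then tested. Without skin B, Tap1, Psmb9 and Psmb10 were called higher in SDLN, as were 48.9%. In 5 members (H2-T23, Tap1, Psmb8, Psmb9 and Psmb10) every skin library lay below every SDLN library, which held for 53.6% of all tested genes, so this share was near the background. In 0 members did every skin library lie above, against 2.39% of tested genes. The fold change was negative for 9 members, of which B2m, H2-D1, H2-T23, Tap2, Tapbp and Psmb8 turned positive under upper quartile scaling, under which genes over the floor everywhere had a median of 6.82 and relative to which all of these but H2-D1 were negative, and B2m also under library size and DESeq2 scaling, and it was negative for 71.3% of all tested genes. The members' median was -1.10. The median over all tested genes was -2.21, or -1.29 with genes at the floor in all libraries of a group set to the bound that 3 counts per library allow.

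Replicate spread was wider in skin for 9 of the 10 genes. The coefficient of variation ran from 23.7% (B2m) to 173% (Psmb10) in skin and from 6.36% (H2-K1) to 38.8% (H2-T23) in SDLN. B2m was the exception, with 23.7% in skin and 34.5% in SDLN. H2-K1, with the tightest SDLN values of all members, had a skin coefficient of 50.6%.

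Levels were set against each other per kilobase of annotated exon (CPM per kb). The length was the union of the exons of all annotated transcripts, from 860 bases (B2m) to 5476 bases (Tap1). The order below depends on it, and other lengths were not tried. In SDLN the light chain B2m led with a mean of 2905, followed by H2-D1 at 1698 and H2-K1 at 651, then Psmb8 and Tapbp at 240 and 239, Tap2 at 113, Psmb10 at 103, Tap1 at 55.3, Psmb9 at 43.9 and H2-T23 at 37.1 CPM per kb. Neighbours whose library ranges overlapped were B2m with H2-D1, Psmb8 with Tapbp, Tap2 with Psmb10, and Psmb9 with H2-T23, and the other neighbouring pairs did not overlap. In skin the same 3 genes led, with means of 2928 for B2m, 1653 for H2-D1 and 986 for H2-K1. Tapbp (121), Psmb8 (108) and Tap2 (55.4) came next, and Psmb10, H2-T23, Psmb9 and Tap1 ended the order at 13.0, 11.1, 8.41 and 7.95 CPM per kb. Among neighbours in the skin order, only H2-K1 (421 to 1365) and Tapbp (39.3 to 251) did not overlap.

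Summed by role, the chains of the molecule overlapped between tissues, and the loading and cutting machinery had lower sums in each skin library. Taken singly, 53.6% of all tested genes had every skin library below every SDLN library. The 3 heavy chains and B2m summed to 9843, 11392 and 7892 CPM in skin against 9761, 9632 and 7301 CPM in SDLN, with means of 9709 ± 1754 and 8898 ± 1385 (SD, n = 3). Tap1, Tap2 and Tapbp summed to 144, 1311 and 617 CPM in skin and 1665, 1735 and 1400 CPM in SDLN. The skin mean of this sum was 43.2% of the SDLN mean, and 23.8% without skin B. Psmb8, Psmb9 and Psmb10 summed to 510, 563 and 180 CPM in skin and 1171, 960 and 1311 CPM in SDLN, and here the skin mean was 36.4% of that in SDLN. In skin A, Tapbp made up 143 of the 144 CPM of the TAP and tapasin sum. Psmb8 made up all 510 CPM of the subunit sum in skin A and 179 of the 180 CPM in skin C. Of all counts on the 10 genes, the chains and B2m took 93.8%, 85.9% and 90.8% in skin against 77.5%, 78.1% and 72.9% in SDLN. The sum of all 10 averaged 10817 ± 2305 CPM in skin against 11645 ± 1422 CPM in SDLN (SD, n = 3), with overlapping groups. No p is given for these sums.

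**Figure D3:**
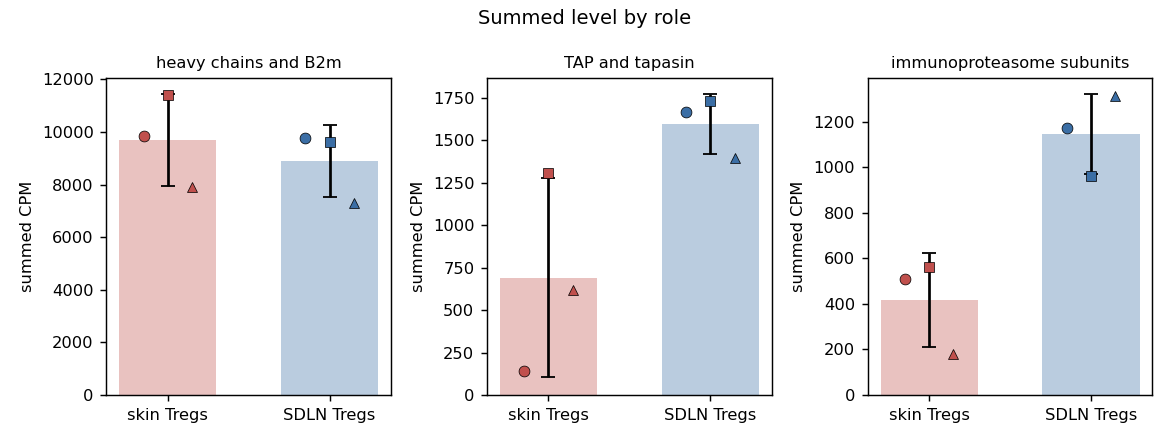
Summed CPM (vertical axes, each from 0) of the heavy chains with B2m, of TAP with tapasin, and of the immunoproteasome subunits, with bars at the group mean, error bars of 1 SD over 3 libraries, and circles, squares and triangles for libraries A, B and C. The groups overlap for the chains, while the TAP and tapasin sum reaches 1311 CPM in the highest skin library and 1400 CPM in the lowest SDLN library.

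The rest of the route was described by 4 lists of 51 further genes, 46 of them tested. Of these, 1 was called higher in skin and 7 higher in SDLN, beside 1.04% and 45.3% of all tested genes, and the median log2 fold change was -0.03. The median over all genes was -2.21, or -1.29 with genes at the floor set to their bound, and 0.28 over genes above the floor in every library. The calls named below are thus no more frequent toward SDLN than among all genes. Among 16 other class I and class I-like chains (11 tested), Fcgrt rose in skin. It encodes the neonatal Fc receptor, which pairs with B2m but carries IgG and albumin in place of peptide. Fcgrt averaged 396 ± 251 CPM in skin against 1.41 ± 0.769 CPM in SDLN (SD, n = 3), a log2 fold change of 8.04 (SE 1.27, edgeR adjusted p = 0.00405). With libraries blocked by letter its edgeR adjusted p was 0.0585. Mr1, which presents vitamin B metabolites to MAIT cells, had 0, 0 and 4 counts in skin and 24.6 ± 6.10 CPM in SDLN (edgeR adjusted p = 0.0189), a call lost without SDLN C (edgeR adjusted p = 0.0514).

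Of 12 peptide loading partners, which act beside TAP and tapasin, 0 were higher in skin and 2 were higher in SDLN (median 0.01). Lnpep, a peptide-trimming aminopeptidase of endosomes, had 0 counts in each skin library and 31.46 ± 17.03 CPM in SDLN (edgeR adjusted p = 0.00402). Uggt1, the glucosyltransferase that checks glycoprotein folding, had 0, 0 and 2 counts in skin and 150 ± 32.1 CPM in SDLN (edgeR adjusted p = 0.0147). The Uggt1 call was lost without SDLN A, without SDLN B and with libraries blocked by letter (edgeR adjusted p of at most 0.0769). The 7 proteasome partners, among them Psmb5, Psmb6 and Psmb7, held 0 calls in either direction by edgeR, and 0 had an unadjusted p under 0.05 (median -0.53).

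Of 16 regulators of class I transcription, 0 were higher in skin and 4 were higher in SDLN (median -0.85). A count of 0 in all skin libraries, found for 3 of them, was found for 33.3% of all tested genes. Nlrc5, the transactivator of class I promoters, had 0 counts in every skin library and 91.5 ± 40.1 CPM in SDLN (edgeR adjusted p = 0.0121). This call was lost without SDLN A, B or C, each in turn, where the adjusted p of edgeR reached at most 0.0576. The other 3 are the subunits of the RFX complex, through which Nlrc5 and the class II transactivator reach DNA. Rfx5 and Rfxank also had 0 counts in all skin libraries, with SDLN levels of 23.01 ± 8.63 and 44.5 ± 2.54 CPM (edgeR adjusted p = 0.00374 and 0.00469). Rfxap had 0, 0 and 1 counts in skin and 3.11 ± 1.45 CPM in SDLN (edgeR adjusted p = 0.00608). In the same skin libraries H2-K1, H2-D1 and B2m each had at least 4637 counts.

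Class II molecules load peptides from endosomes, and their genes share the RFX complex. Of 8 genes of the class II route, 6 were higher in skin (H2-Aa, H2-Ab1, H2-Eb1, Cd74, H2-DMa and H2-DMb1) and 0 higher in SDLN, beside 1.04% and 45.3% of all tested genes. The median log2 fold change of the route was 6.21. Their summed level was 31024 to 55513 CPM in skin and 396 to 761 CPM in SDLN, against 8689 to 13266 and 10011 to 12597 CPM for the 10 class I members.

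Markers of other cells were summed beside these values. Of all tested genes, 1.04% were called higher in skin and 45.3% higher in SDLN, and 33.3% had 0 counts in all skin libraries. Of 16 tested myeloid markers, 13 were higher in skin and 1, Itgam, was higher in SDLN with 0 counts in every skin library. T cell markers (11 genes) summed to 5373 ± 1028 CPM in skin and 10856 ± 1099 CPM in SDLN, and Treg markers (10 genes) to 8174 ± 1876 and 6826 ± 475 CPM (SD, n = 3). In the T cell list Trbc2 was called, higher in SDLN, and in the Treg list Ctla4 and Il10 were called, higher in skin. B cell markers (7 genes) summed to 728 ± 137 CPM in skin, where 5 of them were at 0 in all libraries, and 1568 ± 128 CPM in SDLN, and 5 were called higher in SDLN. CD8 and NK markers (9 genes) summed to 1198 ± 120 CPM in skin and 283 ± 15.2 CPM in SDLN, with Gzmb and Nkg7 higher in skin and Cd8a, Cd8b1 and Prf1 higher in SDLN. The skin sum was that of Gzmb and Nkg7, since the other 7 (Cd8a, Cd8b1, Gzma, Prf1, Klrk1, Ncr1 and Klrb1c) were at 0 in all skin libraries. Keratinocyte markers (8 genes) did not exceed 0.0852 CPM in skin and 11.2 CPM in SDLN, and Krt5, Krt14, Krt15 and Trp63 were at 0 in all 6 libraries. Krt10 was called, higher in SDLN. Fibroblast markers reached 90.6 CPM in skin B and at most 7.56 CPM elsewhere, endothelial markers 0.511 to 25.9 CPM in skin and 139 to 173 CPM in SDLN, and mast cell and granulocyte markers at most 26.9 CPM in any library. Kit, in the mast cell and granulocyte list, was called, higher in SDLN. The part of these cells in the class I values was not tested.

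**Figure D4:**
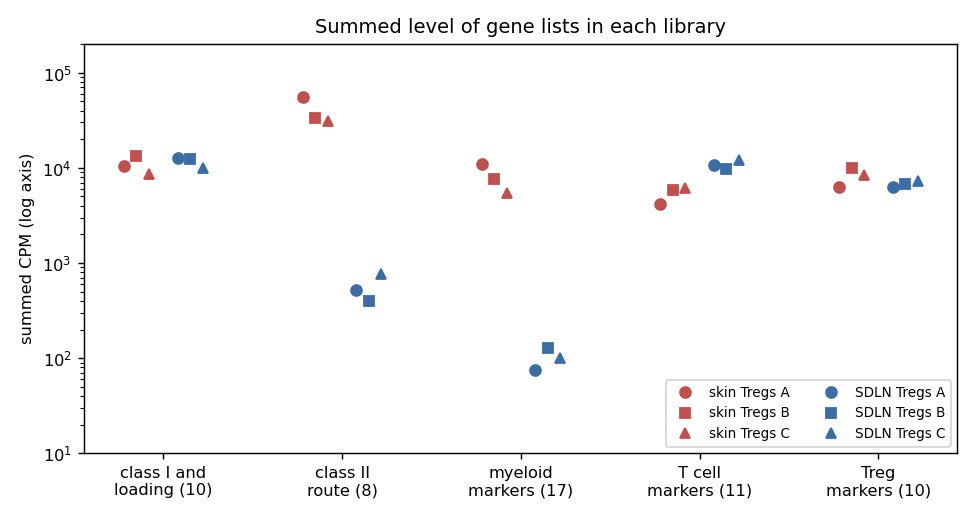
Summed CPM of the 10 class I and loading genes beside the class II route and the myeloid, T cell and Treg marker lists (number of genes in parentheses), on a log axis, with 1 point per library, red for skin and blue for SDLN. The class I sums overlap between tissues at 8689 to 13266 CPM, while the class II sums are 31024 CPM or more in skin and 761 CPM or less in SDLN.

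Outside the route, the genes whose pattern over the 6 libraries was most like the sum of the 10 members were Snrpe, Dyrk1a and Nop10. They were chosen among 8264 genes that averaged 10 CPM or more by the root mean square difference of log2(CPM + 1), centred on its mean, which was 0.151, 0.160 and 0.166. Snrpe, a core protein of spliceosomal particles, had 140, 159 and 86.6 CPM in skin and 160, 153 and 139 CPM in SDLN. This likeness is a description over 6 libraries.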

How the data were processed

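Bulk RNA-seq of 3 skin Treg and 3 SDLN Treg samples was analysed. Groups were taken from the sample titles, because the tissue field reads skin for every sample. The authors sequenced 150 bp paired-end reads, trimmed them with Trimmomatic 0.36, mapped them to GRCm38 with STAR 2.5.2b and counted exon reads with featureCounts (Subread 1.5.2), per the study's methods and the submitters' processing notes. The deposited table holds raw, unnormalized counts by Ensembl gene. Annotation release, strand setting and treatment of duplicates are not given in the sources used here. No molecular identifiers are described, so floors cover counting error only.

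From these counts, symbols and exon lengths were added from GENCODE M21 (49056 of 49315 genes named), and the members were tested within a fit of the whole table: edgeR 4.0.16 in R 4.3.3, filterByExpr, TMM, a robust quasi-likelihood F test with tissue as the term, and Benjamini-Hochberg adjustment over 13572 genes at a threshold of 0.05. Standard errors and intervals came from the F statistic. The design's biological coefficient of variation was 1.43. Alternatives used other scalings, filters and tools (DESeq2 1.42.0, limma 3.58.1), each library left out, and libraries drawn down to 3748669 counts. Ratios were compared with exact permutation tests. The methods count 3 samples in total after pooling, beside the 6 libraries here, so skin and SDLN libraries may be paired by pool. No source used here says which libraries share mice, and the main tests took none as pairs. The p-values measure the spread between these pooled samples.

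Members, motifs and 15 gene lists were chosen with earlier results of these data known. By the rule for named genes, the text names all members, the called genes of the pathway and class II lists, genes used in ratios, Foxp3, Cd4, markers at 0, and the 3 genes of nearest pattern. Called genes of the marker lists and the 5 chains in the closing section were named after their values were seen. A motif that was also searched is not reported here. Promoter windows are from RefSeq on GRCm38.p6. Of the 150-base stretches of member transcripts, the share also found in another gene was 10.1% for Tapbp, 4.55% for Psmb8 and at most 1.46% for the others. The share was not measured for other class I chains.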

Additional observations from a re-analysis of the deposited data

How the results depend on the processing

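Of 176 values of the members' fold changes under alternative settings, 153 kept their direction and side of the threshold, 12 changed sign and 11 became calls. The count of members called higher in skin was 0 throughout, except that leaving out 1 library gave 0 to 1 (H2-K1, without skin A). The count of members called higher in SDLN was 1 (Psmb8) with TMMwsp scaling, with DESeq2 and with libraries drawn down to the smallest total, 3 with limma voom (Tap1, Psmb9 and Psmb10), and 0 to 3 with 1 library left out, the 3 being the same genes without skin B. Pathway partners called higher in skin numbered 2 in place of 1 with DESeq2 size factors, upper quartile scaling, library size only, at least 10 counts in every library, dispersions not robust, and libraries drawn down, 5 with DESeq2, 3 with limma voom, and 1 to 5 with 1 library left out (5 without skin A, 2 without skin B). Those called higher in SDLN numbered 12 in place of 7 with limma voom, 4 at a threshold of 0.01, 0 under the filter of 10 counts per library, by which fewer genes are tested, and 5 to 12 with 1 library left out (12 without skin B). Where no cause is shown, the cause was not tested.

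The log2 fold change of B2m, -0.01 as reported, was 0.0461 with DESeq2 size factors, 0.0462 with DESeq2, 0.0197 with library size only, and -0.37 to 0.10 with 1 library left out. With upper quartile scaling, genes over the floor in all libraries had a median of 6.82 in place of 0.28, and under it B2m was at 6.55, H2-D1 at 6.86, H2-T23 at 5.57, Tap2 at 0.0129, Tapbp at 3.88 and Psmb8 at 5.75. Relative to that median these were -0.26, 0.04, -1.25, -6.80, -2.94 and -1.07. H2-K1, positive as reported, was at 5.84 under this scaling and at -0.97 relative to that median. With 1 library left out, the difference in the log2 ratio of both classical chains to B2m ran from -0.0200 to 0.38, that of H2-K1 to H2-D1 from -0.19 to 1.43, and that of H2-T23 to both classical chains from -3.40 to -1.24. The summed level of the 10 members in skin was 82.4% to 102% of that in SDLN with 1 library left out. The count columns of both tissues carry the letters A to C, which no label links to the numbered titles. A replicate block by letter was added after seeing the data. Deviations from the group means correlated across genes at r = 0.0460, -0.0100 and 0.0914 for the same-lettered A, B and C libraries. For libraries of different letters r ran from -0.0824 to 0.0513. With many genes at the floor in skin, these values cannot decide whether the letters are pairs. The main fit assumed no pairs. Under the block 0 members were called in either direction, B2m was at 0.0118, and pathway partners called numbered 0 higher in skin and 6 higher in SDLN. By counting error alone, a count of 0 in skin A stands for a level under 0.800 CPM. Of the 2245 genes chosen above by their SDLN mean, 53.9% were at the floor in skin A. In each SDLN library drawn down to 3748669 counts, 0% of them were. A count of 0 in skin is therefore no firm upper bound on the level in the cells. The cause of the difference was not tested.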

Other observations

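Values of 5 other class I chains outside the 10 members are given here. They were chosen after their values were seen, and none of the following passed the threshold in the edgeR fit used for the report. H2-Q6, a Qa-2 chain, had 246, 206 and 289 CPM in skin A, B and C and 51.2, 45.7 and 42.4 CPM in SDLN, a log2 fold change of 2.43 (SE 0.86, edgeR adjusted p = 0.0665), with all skin libraries above all SDLN libraries. It was called in 5 of 17 alternatives: with DESeq2, with limma voom, under the filter of 10 counts per library, with dispersions not robust, and without skin A. The split of reads among near-identical H2-Q copies is uncertain. H2-Q7, such a copy, had 0, 237 and 127 CPM in skin and 78.0 to 105 CPM in SDLN.

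H2-M3, which presents formylated peptides, had 143, 0.0852 and 148 CPM in skin A, B and C, with skin B at 1 count, and 51.6 to 60.1 CPM in SDLN. H2-M2 had 165, 0 and 132 CPM in skin and at most 1.24 CPM in SDLN, and it was called in 2 of 15 alternatives, upper quartile scaling and DESeq2. In both genes, as in H2-T23, skin B was the lowest skin library, whereas for Tap1, Psmb9 and Psmb10 it was the highest. H2-T10 had 423, 51.0 and 92.3 CPM in skin and 42.2 to 49.4 CPM in SDLN.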
